A study of Mus musculus with 18 samples.

Results

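Cysteine tRNA was followed in brains of 8-week-old male C57BL/6 mice, 3 wild-type (WT) and 3 Ftsj1 knockout (KO), with no other treatment. The members are all rows of the deposited read table whose tRNA name is Cys followed by a number, 11 of 147 rows: 10 with the anticodon GCA and 1, Cys1, with the anticodon ACA. Each row was taken as 1 mature tRNA sequence (an isodecoder where rows share an anticodon). Each mouse gave 3 libraries, so that 18 libraries form 6 groups of 3: tRNA selected by size from total RNA (total), tRNA recovered from ribosomes after ribosome profiling (ribosome-contained), and shorter tRNA pieces from total RNA (fragments). The knockout allele is not described in the sources used here, and Ftsj1 mRNA lies outside these libraries, so the knockout itself was not checked.

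FTSJ1 is a methyltransferase that methylates the ribose at a few positions of the anticodon loop in some tRNAs. The anticodon GCA reads both cysteine codons, UGC and UGU, through its wobble G, while ACA would pair with UGU. Cleavage in the anticodon loop yields long tRNA fragments, and the 5′ fragments of cysteine and alanine tRNA, which start with a run of G, are known from work in human cells for repressing translation. The RefSeq gene table for the mouse assembly GRCm38.p6 lists 57 nuclear tRNA genes named for Cys-GCA, 49 of them on chromosome 6, 5 on chromosome 11, 2 on chromosome 9 and 1 on chromosome 17, and 0 named for Cys-ACA. The rows of the read table are not paired with these genes, so no coordinates or sequences are given.

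Total libraries held 1505291 to 2000422 reads, of which 44201 to 66974 were cysteine. Ribosome-contained libraries held 406764 to 672127 reads (6543 to 12307 cysteine) and fragment libraries 85323 to 151056 (2097 to 4543 cysteine). Every level is a share of the tRNA in its library, since no external standard was used here, and fewer cells of a type cannot be told apart from less tRNA per cell. A count also reflects ligation, reverse transcription and amplification, and the counting can have divided reads between near-identical rows.

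A single row made up nearly all cysteine tRNA. Cys19 held 95.2% ± 0.130 of cysteine reads in total libraries of WT mice and 94.8% ± 0.0885 in KO (SD, n = 3 mice each, as in every mean below). Cys6 followed with 3.94% ± 0.0950 in WT total tRNA, then Cys20 with 0.651% ± 0.0349 and Cys5 with 0.113% ± 0.0287. Of the remaining GCA rows, Cys15 had 30 to 62 reads and Cys13 16 to 42 reads per total library. Cys16, Cys17, Cys11 and Cys18 had 0 to 16 reads there. Cys1, the ACA row, had 2 to 30 reads per total library and 119 reads over all 18 libraries, against 393019 reads of the 10 GCA rows together. At such counts the scarce rows are measured only coarsely.

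**Figure D1:**
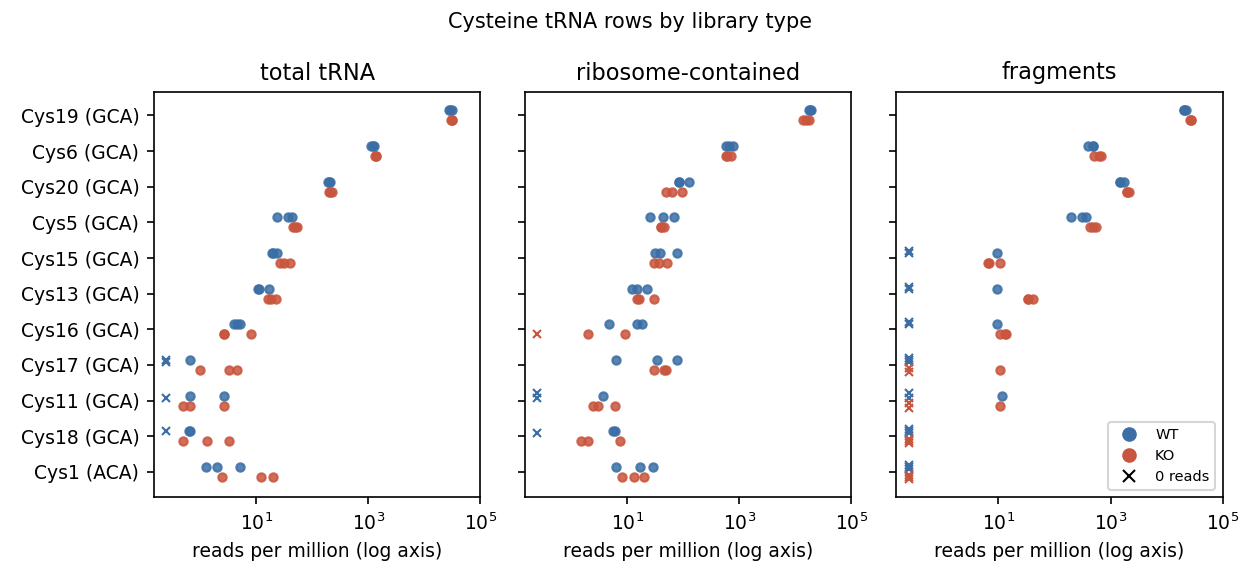
RPM (reads-per-million of the tRNA reads of a library, log axis) of each cysteine row in the 3 library types. Each dot is 1 library, blue for WT and red for KO, and crosses at the left edge mark libraries with 0 reads. Cys19 leads in every library, Cys20 and Cys5 stand higher among fragments than in total tRNA, and Cys1 and Cys18 have no fragment read.

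Summed over its 10 rows, Cys-GCA was among the more abundant anticodon families of total tRNA, ranking 9 of 54 in WT and 8 in KO. It ranked 21 in ribosome-contained tRNA of both genotypes, and 14 in WT and 13 in KO among fragments. From high to low, the mean shares of library reads were 3.26% ± 0.0995 in KO total, 3.05% ± 0.179 in WT total, 2.99% ± 0.0137 in KO fragments, 2.36% ± 0.0868 in WT fragments, 1.92% ± 0.109 in WT ribosome-contained and 1.64% ± 0.181 in KO ribosome-contained libraries. Neighbours overlapped at KO and WT total, at WT total and KO fragments, and at WT and KO ribosome-contained. KO fragments lay above WT fragments in every mouse, and WT fragments above WT ribosome-contained.

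**Figure D2:**
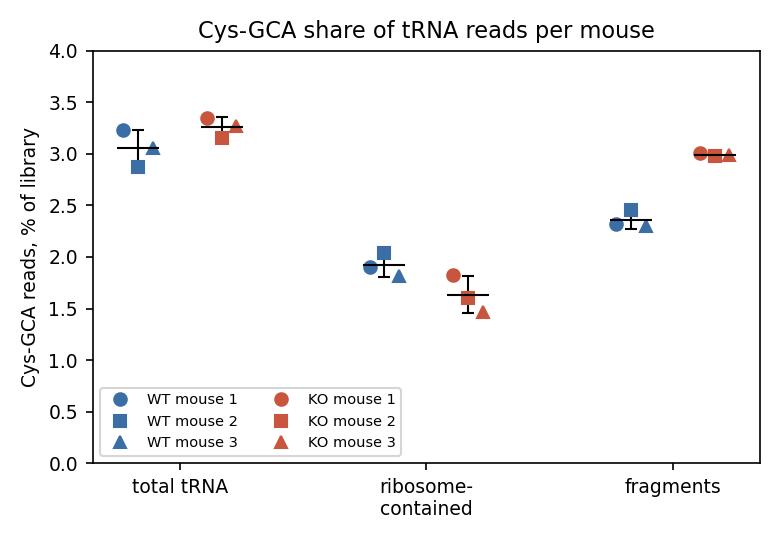
Share of library reads held by Cys-GCA (vertical axis, percent, from 0) in total, ribosome-contained and fragment libraries. Symbols are single mice, horizontal bars the mean and whiskers the SD of 3 mice. The KO fragment libraries lie close together at 2.98% to 3.01%, above the WT fragment libraries at 2.30% to 2.46%.

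KO was set against WT in each library type with edgeR's quasi-likelihood test over the whole table, once on the rows and once on the sums of 54 anticodon families, taking a Benjamini-Hochberg adjusted p under 0.05 as passing. In total tRNA no cysteine tRNA passed. Cys-GCA held 3.23%, 2.87% and 3.05% of reads in the WT mice and 3.35%, 3.15% and 3.27% in the KO mice. The groups overlapped, and the log2 fold change was 0.06 (SE 0.07, quasi-likelihood adjusted p = 0.806 by edgeR). An exact two-sided permutation test of the share gave p = 0.2, where 3 mice against 3 cannot give less than 0.1. Of all families 8.16% were called. Of 6 cysteine rows that passed the filter on low counts 0 were called, against 17.8% of the 101 rows tested, and 0 had an unadjusted p under 0.05. DESeq2 also called 0. Their log2 fold changes ran from -0.01 for Cys19 (SE 0.08) to 0.52 for Cys15 (SE 0.32), and Cys5 and Cys13 were at 0.39 (SE 0.27) and 0.49 (SE 0.40). With scaling by total reads Cys19 was at 0.09, as the median of all rows moved from -0.01 to 0.09 and the split of all called rows from 10 higher and 8 lower to 17 and 2.

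Within the cysteine reads of total tRNA, the minor GCA rows together took slightly more in KO. Their share of cysteine reads in total tRNA was 4.84%, 4.71% and 4.96% in WT and 5.13%, 5.24% and 5.22% in KO mice. The groups did not overlap (exact permutation p = 0.1, the smallest possible). How many of all rows or families also had groups without overlap is not given. A lack of overlap, here and below, is therefore a description and not a call. The share of Cys19 differed by -0.386 percentage points between KO and WT (exact permutation p = 0.1). Cys6, the largest minor row, held 3.98%, 3.83% and 4.02% of cysteine reads in WT and 4.14%, 4.23% and 4.22% in KO, again without overlap. In ribosome-contained tRNA the minor GCA rows together held 4.61%, 5.70% and 4.16% in WT and 5.01%, 4.84% and 5.99% in KO. There the groups overlapped (exact permutation p = 0.4).

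In ribosomes the share of cysteine tRNA was lower in KO on average, without passing the test. Cys-GCA held 1.90%, 2.04% and 1.82% of ribosome-contained reads in WT mice and 1.83%, 1.61% and 1.47% in KO mice. The groups met at KO mouse 1, whose value was above that of WT mouse 3. The log2 fold change was -0.23 (SE 0.08, quasi-likelihood adjusted p = 0.0807 by edgeR), and the exact permutation p of the share was 0.2. In this comparison 22.4% of families were called. DESeq2 did call it (adjusted p = 0.0262), as did edgeR without KO mouse 1 (adjusted p = 0.00243). Cys-GCA was lower than the lowest WT value in 2 of 3 KO mice. Of 6 cysteine rows tested 0 were called by edgeR or DESeq2, against 3.88% of 103 rows, and 0 had an unadjusted p under 0.05. Cys19 was at -0.18 (SE 0.13) and Cys20 at -0.42 (SE 0.35), while Cys6 was at 0.00 (SE 0.20).

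Among fragments cysteine tRNA was more abundant in KO brain. Cys-GCA held 2.32%, 2.46% and 2.30% of fragment reads in WT mice and 3.01%, 2.98% and 2.99% in KO mice. The groups did not overlap (exact permutation p = 0.1), and the log2 fold change was 0.34 (SE 0.06, quasi-likelihood adjusted p = 5.7e-06 by edgeR), a 1.27-fold rise. Rises were called for 19.6% of the 46 families tested. The log2 fold change lay between 0.32 and 0.39 in 13 alternative settings and passed in each.

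Cys19 held most of the reads behind this rise, and of the 11 cysteine rows 4 had enough fragment reads to be tested. Cys19 went from 20890, 22151 and 20771 RPM in WT to 26851, 26608 and 26753 in KO (log2 fold change 0.33, SE 0.05, quasi-likelihood adjusted p = 0.00093 by edgeR). Cys5 had 41, 17 and 32 fragment reads in WT libraries and 84, 47 and 65 in KO. The corresponding RPM were 360, 199 and 308 against 556, 496 and 436, without overlap (log2 fold change 0.75, SE 0.22, adjusted p = 0.0439). These 2 were the called rows of the 4, all 4 had an unadjusted p under 0.05, and 8.64% of the 81 rows tested were called higher. The call of Cys5 was lost in 7 of 13 alternatives, with adjusted p between 0.0776 and 0.165. They include DESeq2 and the fits without WT mouse 2, KO mouse 1, KO mouse 2 or KO mouse 3.

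The other rows with enough fragment reads, Cys20 and Cys6, did not pass. Cys20 held 1458, 1723 and 1461 RPM in WT and 2099, 2004 and 1933 in KO fragments, without overlap (log2 fold change 0.38, SE 0.12, adjusted p = 0.0598). It was called with scaling by total reads and without WT mouse 2. Cys6 was at 0.39 (SE 0.18, adjusted p = 0.176). Cys13, which failed the filter, had 0, 0 and 1 fragment reads in WT and 5, 4 and 5 in KO libraries. Within cysteine, Cys19 took 90.0%, 90.1% and 90.4% of fragment reads in WT and 89.3%, 89.2% and 89.6% in KO, a difference of -0.826 percentage points without overlap (exact permutation p = 0.1).

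**Figure D3:**
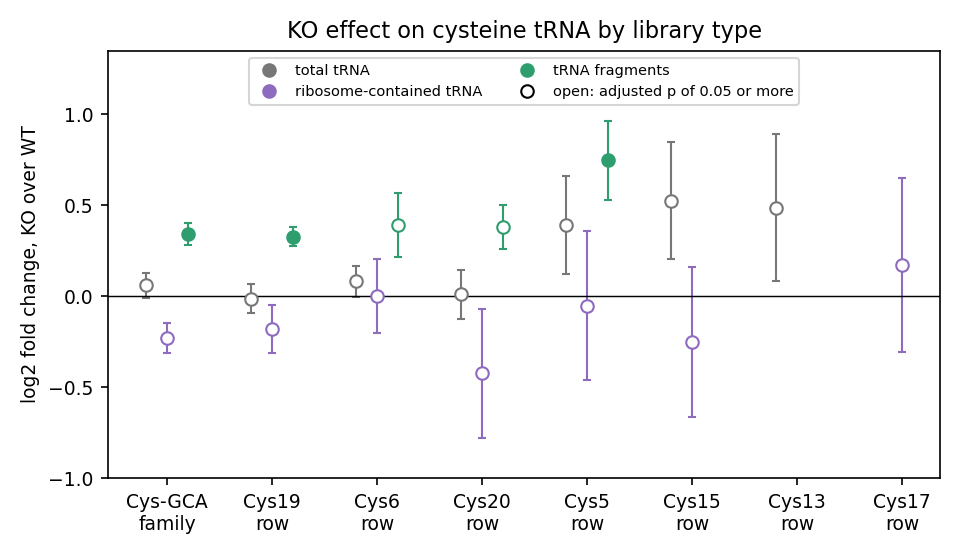
Log2 fold change of KO over WT for the Cys-GCA family and for the cysteine rows that passed the filter, in total (grey), ribosome-contained (purple) and fragment (green) libraries. Whiskers are the standard error, and filled symbols mark an adjusted p under 0.05. The fragment values are all above 0, with Cys-GCA, Cys19 and Cys5 filled, and no total or ribosome-contained value is filled.

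Whether the KO effect differs between library types was tested as an interaction over 12 libraries. For fragments against total tRNA the difference was 0.41 for Cys19 (SE 0.11, quasi-likelihood adjusted p = 0.0145 by edgeR), the 1 called of 6 cysteine rows tested, where 6.67% of 105 rows were called higher. The call was lost in 5 of 13 alternatives: with DESeq2's size factors, with scaling by total reads, without WT mouse 1, without KO mouse 3 and in the fit over all 18 libraries (adjusted p from 0.0502 to 0.293). Without KO mouse 3 the difference was 0.21. The split of all rows, 7 higher and 2 lower, became 6 and 7 with scaling by total reads and 6 and 5 with DESeq2's size factors. The family Cys-GCA was at 0.16 (SE 0.08, adjusted p = 0.112) and did not pass, where 32.7% of 49 families were called. The 2 fits are centred differently: the median over all rows was 0.06 and that over all families -0.19, so that Cys19 lay 0.34 and Cys-GCA 0.35 above its median. With scaling by total reads both medians were -0.10. In each mouse the fragment share of Cys-GCA was divided by its total share. This ratio was 0.718, 0.855 and 0.753 in WT and 0.898, 0.947 and 0.913 in KO mice, without overlap (exact permutation p = 0.1, the smallest possible).

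For ribosome-contained against total tRNA the KO effect on Cys-GCA differed by -0.26 (SE 0.14, quasi-likelihood adjusted p = 0.243 by edgeR). No family was called in this test (0% of 51; up to 13 without KO mouse 1), and 0 of 8 cysteine rows, where 5.93% of 118 rows were called. Of those 8 rows 2 had an unadjusted p under 0.05, Cys1 and Cys17, and DESeq2 called 0 of the rows. For the family, however, DESeq2 gave a call (-0.39, adjusted p = 0.00909), as did edgeR without WT mouse 1 (-0.46, adjusted p = 0.0151) or KO mouse 1 (-0.42, adjusted p = 0.00294). The ratio of the ribosome-contained to the total share was 0.589, 0.709 and 0.596 in WT and 0.547, 0.510 and 0.450 in KO mice, without overlap (exact permutation p = 0.1, the smallest possible).

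Within WT brain, cysteine tRNA took a smaller part of ribosome-contained than of total tRNA. Cys-GCA was lower by a log2 difference of -0.72 (SE 0.10, quasi-likelihood adjusted p = 5.1e-09 by edgeR), a direction kept in each of 13 alternatives (-0.91 to -0.67), where 37.3% of 51 families were called lower. Of 8 cysteine rows 3 were lower, Cys19 (-1.12, SE 0.11), Cys6 (-1.31, SE 0.14) and Cys20 (-1.48, SE 0.23), and 2 were higher, Cys1 and Cys17. The 3 lower rows passed in each of 13 alternatives, but their size moved. It ran from -1.29 to -0.67 for Cys19, from -1.48 to -0.85 for Cys6 and from -1.67 to -1.02 for Cys20. The calls of Cys1 and Cys17 are not counted as support, since these rows entered the fit mainly through ribosome-contained libraries. In all, 39.8% of 118 rows were called lower and 40.7% higher (47 and 48 rows), a split that moved to 32 lower and 63 higher with scaling by total reads. Cys5, at -0.08 (SE 0.36), and Cys13, at -0.06 (SE 0.44), did not pass, nor did Cys15 at 0.74 (SE 0.36, adjusted p = 0.0594). Cys19, Cys6, Cys20, Cys5 and Cys13 lay below the median of all rows in this fit. Above it lay only Cys15, not called, and Cys1 and Cys17, whose calls are not counted. That median was 0.14 and moved to 0.59 with scaling by total reads and to -0.09 in the fit over all 18 libraries. The ratio of the shares was 0.590, 0.701 and 0.601 for Cys19 and 0.422, 0.659 and 0.403 for Cys20 in the WT mice.

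Cys17 and Cys1 were the rows called higher in ribosomes. For reads summed over the WT mice, the intervals of Cys18, Cys16 and Cys15 also lay above 1. Those intervals cover counting error only and not the spread between mice. In WT the ratio of shares was 8.33 for Cys18 (95% Clopper-Pearson interval 1.49 to 84.4). It was 2.64 for Cys16 (interval 1.36 to 5.12) and 2.29 for Cys15 (interval 1.68 to 3.11). By mouse the WT ratios were 4.58, 3.28 and 0.929 for Cys16 and 1.93, 3.92 and 1.34 for Cys15. Cys18 rested on 6 ribosome-contained and 2 total reads in WT. In KO the intervals of Cys18, Cys16 and Cys15 held 1, as did those of Cys5, Cys11 and Cys13 in WT. Neither Cys17 nor Cys1 passed the filter among the total libraries alone. Cys17 entered the fit of both types through the ribosome-contained libraries, where it was high. Cys1 entered mainly through the same libraries, with 28.4, 16.8 and 6.36 RPM in WT ribosome-contained against 1.99, 1.30 and 5.13 in WT total. Neither call is therefore counted as support, and the reads are given as a description. Cys17 had 1, 0 and 0 reads in WT total libraries and 17, 41 and 4 reads in the much shallower ribosome-contained libraries of the same mice. Summed over mice this is a ratio of shares of 172, with a 95% Clopper-Pearson interval of 29.8 to 6906 that covers counting error only. In KO mice the row had 2, 7 and 6 total reads and 20, 20 and 23 ribosome-contained reads, a ratio of 14.3 (interval 8.03 to 27.0). Cys1, with the anticodon ACA, had 3, 2 and 8 reads in WT total and 14, 9 and 4 in WT ribosome-contained libraries, a ratio of 5.77 (interval 2.87 to 12.2). The fitted log2 difference was 2.07 (SE 0.71, quasi-likelihood adjusted p = 0.0098 by edgeR). In KO mice the ratio of Cys1 was 1.23, with an interval of 0.709 to 2.06 that holds 1. Without WT mouse 1 the call of Cys1 was lost (adjusted p = 0.136). Summed to its family, Cys-ACA lost the call without WT mouse 1 or WT mouse 2 (adjusted p of 0.257 and 0.0653). WT mouse 3 was the lowest of the WT ribosome-contained libraries for both rows.

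In KO total tRNA Cys1 had 5, 30 and 23 reads, and in KO ribosome-contained tRNA 9, 8 and 4. The KO to WT ratio of its summed total share was 3.82 (interval 2.07 to 7.596, counting error only), with KO mouse 1 inside the WT range. The row failed the filter for this comparison. It passed in edgeR when no filter was set (adjusted p = 0.0186), and also without WT mouse 3 or KO mouse 1. In both of those leave-out fits Cys1 entered through KO mice 2 and 3, where it was high at 19.8 and 12.4 RPM. The other mice had 1.30 to 5.13 RPM, so those calls are not counted as support. KO mice 2 and 3 stood apart for scarce rows in general. The 61 rows of the table with a mean under 50 reads per total library summed to 221, 271 and 292 RPM in WT mice and 312, 520 and 515 in KO mice. KO mice 2 and 3 were both above the other 4 mice in 28 of these rows (45.9%), a count made after their values were seen, and its part in the values of Cys1 and Cys17 was not tested. Among fragments Cys1 had 0 reads in each of the 6 libraries, which allows a share of up to 0.00199% to 0.00352% depending on the library. Its share of total tRNA was below that limit in each of the 6 mice. Summed over the KO mice, 0 of 394907 fragment reads against 58 of 5378114 total reads gave a ratio of 0 with a 95% interval of 0 to 0.894, which leaves out 1. Over the WT mice, with 13 total reads, the interval was 0 to 4.98 and holds 1.

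Fragment reads were assigned to the GCA rows in very different proportions from total reads. The rule for reads matching several rows is not known, and its part in these proportions was not tested. In WT mice Cys20 held 0.610%, 0.670% and 0.672% of the cysteine reads of total tRNA but 6.29%, 7.01% and 6.36% of those of fragments. Cys5 held 0.138%, 0.0814% and 0.120% against 1.55%, 0.811% and 1.34%. Both were above their total share in all 6 mice, while Cys6 went the other way, from 3.98%, 3.83% and 4.02% to 2.12%, 2.00% and 1.76%. Set against all tRNA, the ratio of the fragment to the total share was 7.39, 8.95 and 7.12 for Cys20 and 8.09, 8.51 and 8.42 for Cys5 in WT. In KO the same ratios were 9.15, 10.01 and 9.12 for Cys20 and 12.2, 9.29 and 9.01 for Cys5. For Cys6 they were 0.383, 0.447 and 0.329 in WT.

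These differences passed in the fit over fragment and total libraries. Cys20 was higher by 2.76 on the log2 scale (SE 0.12, quasi-likelihood adjusted p = 1.2e-14 by edgeR) and Cys5 by 2.88 (SE 0.28, adjusted p = 6.9e-09). Cys6 was lower (-1.58, SE 0.13), as were Cys19 (-0.64, SE 0.08) and Cys15 (-2.82, SE 1.03), which had 97 reads in WT total but 1 in WT fragment libraries. Cys15 failed the filter among fragment libraries and entered this fit through the total libraries, where it was high, so its call supports nothing by itself. Its value was -7.25 without WT mouse 3, and its call was lost without WT mouse 1 (-2.18), without WT mouse 2 (-2.41) and with DESeq2. Of 6 rows tested 2 were thus higher and 3, Cys15 included, lower, where 30.5% of 105 rows were called higher and 49.5% lower. The median of all rows in this fit was -0.60 and moved to -0.29 with DESeq2's size factors and to -1.13 in the fit over all 18 libraries. Cys19 lay 0.04 below that median, so that its difference is close to that of the middle row, whereas Cys20 lay 3.36 and Cys5 3.48 above it. Cys20 and Cys5 kept their call and direction in each of 13 alternatives. The median of all families was -0.46, and Cys-GCA lay 0.36 above it, unlike Cys19 among the rows. The family as a whole was at -0.10 (SE 0.06, adjusted p = 0.105), where 85.7% of 49 families were called. Its sign depended on the scaling: it was 0.22 (adjusted p = 0.0101) with DESeq2's size factors and -0.37 (adjusted p = 1.0e-05) with scaling by total reads.

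**Figure D4:**
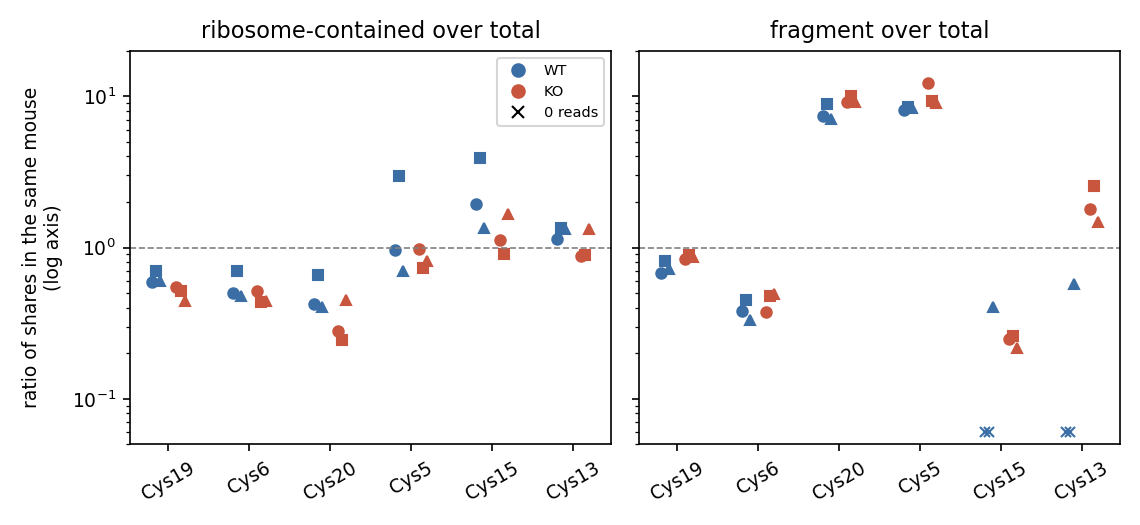
Ratio of the share of library reads in ribosome-contained (left) or fragment (right) libraries to the share in the total library of the same mouse (log axis, dashed line at 1), for the 6 cysteine rows with most total reads. Symbols are mice 1 (circle), 2 (square) and 3 (triangle), and crosses mark 0 reads. Fragment ratios of Cys20 and Cys5 lie between 7.12 and 12.2 in all mice, and those of Cys19 and Cys6 below 1.

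Cys-GCA is one of 9 families listed here as reported FTSJ1 targets. In KO fragments 4 of the 9 were called higher and 1 lower, with a median log2 fold change of 0.19, beside 9 higher and 3 lower of 46 and a median of -0.04 for all families. In total tRNA 0 of the 9 were higher and 2 lower (1 and 3 of 49 families), and in ribosomes 0 were higher and 2 lower (5 and 6 of 49). Cys-GCA was one of the 4 higher in fragments and none of the 2 lower in the other types. Of the alanine families, whose 5′ fragments also start with G, Ala-AGC rose among KO fragments by 0.33 (SE 0.07, quasi-likelihood adjusted p = 0.00016 by edgeR), from 1.41% ± 0.0643 to 1.78% ± 0.139, while it fell by 0.22 in total tRNA (SE 0.06, adjusted p = 0.0165). Ala-CGC (0.06, SE 0.11) and Ala-TGC (0.04, SE 0.12) did not pass. The fragment counts do not tell 5′ pieces from other pieces of a tRNA.

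Over the 18 libraries, the families whose log2 CPM (the same unit as RPM) followed Cys-GCA most closely were Thr-CGT, with a Pearson r of 0.937, SeC-TCA, the selenocysteine tRNA, with 0.904, and Lys-TTT with 0.896. The median over 45 families was -0.23. The libraries share mice and fall into 3 types, so these values describe mainly the levels by type. Thr-CGT held, on average, 1.72% of WT total reads, 0.745% of WT ribosome-contained reads and 1.54% of WT fragment reads. Lys-TTT held 7.56%, 4.58% and 7.75% in the same order, and SeC-TCA 0.478%, 0.0129% and 0.184%.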

How the data were processed

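The authors deposited raw read counts in 1 table of 147 tRNA rows and 18 libraries. Libraries used a 3′ adaptor and, per the labels' protocols, the enzyme AlkB to take off base methylation that blocks reverse transcription. The submitters' processing notes name Bowtie2, but its settings, the tRNA reference, the build and the rule for reads matching several rows were not given in the sources used here. One ribosome-contained column headed K3 was taken as KO mouse 3. No 2 libraries of a group agreed within sampling noise (chi-square per degree of freedom of 5.87 or more).

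From these counts, differences were fitted in edgeR 4.0.16 (R 4.3.3) by its quasi-likelihood test after TMM scaling and filterByExpr (minimum count 10), adjusting p by Benjamini-Hochberg over every row or family tested within a library type over 6 libraries and between types over 12 libraries in 4 groups. The standard error is the absolute log2 fold change divided by the square root of F. Alternatives used DESeq2 1.42.0, limma 3.58.1 (voom), other scalings, no filter, a replicate block and each mouse left out. Exact permutation tests of shares (two-sided) used SciPy 1.17.1. Reads carry no molecular identifiers, so the 95% Clopper-Pearson intervals and the limit for 0 reads (3 counts) cover counting error only. The procedure was tested on simulated data, with changes larger than the KO effects on Cys-GCA and only in rows or families with many reads. For the WT differences between types, the simulated types had the same makeup apart from these changes. Small effects, changes in scarce rows and shifts between scalings were therefore not covered. The mice are labelled as separate animals. Libraries of different types come from the same mice: deviations from the group means correlated between total and ribosome-contained libraries of a mouse with r from -0.339 to 0.637, and between total and fragment libraries with r from -0.137 to 0.32, over 46 families.

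The members and lists were chosen with earlier results of these data known. All 11 cysteine rows and both families are named, with the 3 families most like Cys-GCA in log2 CPM (prior count 2, families with a mean of at least 100 reads) and the alanine families.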

Additional observations from a re-analysis of the deposited data

Results flagged for a closer look

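The KO effect on Cys19 was larger among fragments than in total tRNA, a log2 difference of 0.41 (SE 0.11, quasi-likelihood adjusted p = 0.0145 by edgeR for the interaction). It ran from 0.21 without KO mouse 3 to 0.44 with 1 mouse left out (adjusted p up to 0.293), and the call was lost in 5 of 13 alternatives. The ratio of its fragment share to its total share was 0.679, 0.809 and 0.716 in WT and 0.845, 0.891 and 0.863 in KO mice, higher in each KO mouse than in each WT mouse. The family Cys-GCA, most of whose reads are Cys19, was at 0.16 and did not pass (quasi-likelihood adjusted p = 0.112 by edgeR). The 2 fits are centred differently, with a median of 0.06 over rows and -0.19 over families.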

How the results depend on the processing

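Of 13 alternative settings of each fit, the KO rise of Cys-GCA fragments and its lower level in WT ribosomes kept direction and call in each. In total tRNA the KO difference of Cys-GCA, not called, was -0.0013 in the fit over all 18 libraries and 0.02 to 0.09 with a mouse left out. That of Cys19 was 0.088 with scaling by total reads, 0.0100 over all 18 libraries and -0.064 to 0.024 with a mouse left out. In ribosomes Cys-GCA was called with DESeq2 (-0.22) and over all 18 libraries (-0.21), with -0.30 to -0.16 when a mouse was left out. The difference of KO effects between ribosomes and total was called with DESeq2's size factors (-0.39), DESeq2 (-0.39) and total reads (-0.32), and ran from -0.46 to -0.26 with a mouse left out. That between fragments and total was called with total reads (0.25) and over all 18 libraries (0.33), with 0.12 to 0.23 with a mouse left out. WT fragments against total gave 0.22 with DESeq2's size factors, 0.22 with DESeq2, -0.37 with total reads, -0.35 over all 18 libraries and -0.16 (called, without WT mouse 2) to -0.060 with a mouse left out. Leaving out a mouse left Ala-TGC in KO fragments between -0.032 and 0.076. The causes were not tested.

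The count of called cysteine rows in total tRNA, 0, was 1 (Cys1) without the filter and 0 to 1 with a mouse left out. In fragments, 2 became 1 with DESeq2 and with the replicate block, 1 to 2 with a mouse left out, and 3 with total reads (Cys20 added) and without the filter (Cys13 added, with 1 WT and 14 KO reads). For the difference between fragments and total, 1 became 0 with DESeq2's size factors, with total reads and over all 18 libraries, 2 without the filter and with limma-voom, and 0 to 1 with a mouse left out. Between ribosomes and total it was 0 to 1 with a mouse left out (Cys1, without WT mouse 3). The mouse as a replicate block, or the number in KO against WT, where it pairs no animals, changed no other call of these counts or of Cys-GCA (fragments, KO against WT: 0.34, adjusted p = 7.1e-05).

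Counts over all rows moved more: 18 called in total tRNA became 4 to 25, 4 in ribosomes 3 to 24, 10 in fragments 8 to 18, 7 between ribosomes and total 0 to 17, and 9 between fragments and total 8 to 16. Over families, 4, 11, 12, 0 and 16 became 1 to 9, 3 to 22, 7 to 14, 0 to 13 and 8 to 17. With total reads the family split moved from 1 higher and 3 lower to 1 and 1 in total tRNA, and from 5 and 11 to 6 and 5 between fragments and total. With 3 mice against 3, or 3 against 2 with a mouse left out, the exact permutation test of a share cannot reach 0.05. The share differences of Cys-GCA kept their sign with each mouse left out. Depth limits the 6 GCA rows and the ACA row that failed the fragment filter.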
